A study of Mus musculus with 28 samples.

Results

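The 10 genes described here make up the core of the MHC class I antigen presentation pathway of the mouse: the heavy chains H2-K1, H2-D1 and H2-M2, the light chain B2m, the peptide transporter genes Tap1 and Tap2, the loading factor Tapbp, the immunoproteasome subunits Psmb8 and Psmb9, and the transcriptional regulator Nlrc5. They were taken by name from 3 deposited count tables, and the list was chosen with earlier results of these data known. All 10 were found in each table, among 17752 gene symbols in livers, 56748 Ensembl genes in the cultures of the NFATc3 set and 21959 in those of the ASK1 set. After the filter on low counts, 10, 9 and 10 of them were tested, H2-M2 being the gene left out of the NFATc3 set. The study asks what the transcription factor NFATc3 and the stress kinase ASK1 (gene Map3k5) do in macrophages during steatohepatitis. Messenger RNA was sequenced in 16 liver samples of male mice fed a diet without methionine and choline for 4 weeks, starting at 8 weeks of age. It was also sequenced in 12 macrophage cultures raised from bone marrow (BMDMs).

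The livers fell into 4 groups of 4. Lyz2-Cre mice carry the Cre recombinase under the Lyz2 gene, which is active in macrophages, other myeloid cells and neutrophils, and were the controls. NFATc3-MKO mice were labelled as lacking NFATc3 in macrophages, ASK1-MKO mice as lacking ASK1 in macrophages, and MDKO mice as lacking both. The BMDMs were differentiated over 7 days, with 30% of the medium conditioned by L929 cells, which secrete the growth factor that turns marrow cells into macrophages. By label, 3 were from a macrophage knock-in of NFATc3 (NFATc3-MKI) and 3 from one of ASK1 (ASK1-MKI), and either knock-in came with 3 Lyz2-Cre controls of its own. Age and sex of the bone marrow donors and the strain were not given in the sources used here. Such a deletion leaves the gene intact in hepatocytes and the other cells of the liver, and whole-liver values mix all of them. In whole liver, fewer cells of a type and less RNA per cell cannot be told apart.

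Class I molecules display peptides from inside the cell to CD8 T cells. Proteasomes cut cellular proteins into peptides, and the immunoproteasome, which carries the exchanged catalytic subunits encoded by Psmb8, Psmb9 and Psmb10, does so with an altered cutting preference. The TAP transporter, made of the products of Tap1 and Tap2, moves the peptides into the endoplasmic reticulum, where tapasin, from Tapbp, holds TAP beside empty class I molecules made of a heavy chain and beta-2-microglobulin, from B2m. Interferon-gamma induces these genes in part through IRF1 and NLRC5, and NLRC5 acts at a promoter module of S, X and Y boxes, which include a cyclic AMP response element and a CCAAT box read on the other strand. H2-K1 and H2-D1 are the classical heavy chains, expressed in nearly all nucleated cells, and H2-M2 is a non-classical heavy chain.

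Of the livers, 15 had total counts of 20601168 to 30834547, and MDKO replicate 3 had 8912117. Totals were 7693464 to 9398163 in the NFATc3 set and 16051951 to 18728508 in the ASK1 set. The targeted genes did not bear out several labels, so group names below stand for labels. In livers labelled MDKO, Nfatc3 was at 36.6 ± 4.60 CPM (counts scaled to library size; SD, n = 4) and Map3k5 at 30.6 ± 2.15, against 36.3 ± 3.94 and 30.9 ± 2.21 in Lyz2-Cre livers, with no loss of either visible. Nfatc3 was at 28.3 ± 5.78 in livers labelled NFATc3-MKO, a difference that did not pass (edgeR adjusted p = 0.12). Whole liver also holds cells in which the genes are intact. Map3k5 was at 46.3 ± 6.12 CPM in livers labelled ASK1-MKO, above the controls. Nfatc3 was at 81.1 ± 8.04 CPM (n = 3) in cultures labelled NFATc3-MKI and 97.5 ± 7.33 in their controls, and Map3k5 was at 26.9 ± 0.349 in cultures labelled ASK1-MKI and 30.1 ± 0.174 in theirs. The macrophage markers also differed between the culture sets. In the ASK1 set Mertk ran from 204 to 299 CPM, Adgre1 (F4/80) from 2674 to 3330 and Lyz2 from 26580 to 29900. In the 6 cultures of the NFATc3 set Mertk had 0 or 1 count each, Adgre1 ran from 30.0 to 36.3 CPM and Lyz2 from 362.6 to 502.5, while Cd68 ran from 706 to 1034 (1680 to 1888 in the ASK1 set) and Csf1r from 274 to 407 (1319 to 1532). Of these markers Mertk was thus near absent and the others were detected at lower levels. The sets are therefore given side by side, without a test between them.

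In the files' genome build, mm10, 8 of the 10 genes lie within 3.57 Mb of chromosome 17, from the start of Tapbp at 33915899 to the end of H2-M2 at 37483552. B2m lies on chromosome 2 (122147686 to 122153083) and Nlrc5 on chromosome 8 (94434356 to 94527272). Tap2, Psmb8, Tap1 and Psmb9 are neighbours there. In RefSeq (GRCm38.p6, the assembly behind mm10) the start of Tap1 at 34187556 and the start of Psmb9 at 34187330 face away from each other with 225 bases between them. The Psmb9 gene model of the annotation used here (34181987 to 34187764, minus strand) runs past the start of Tap1 (34187553), so reads at that point depend on the strand setting of the authors' counting, which is not given in the sources used here.

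Promoter windows of 250 bases before the RefSeq start were found for 8 of the 10 genes (all but Tap2 and Nlrc5). H2-K1 and B2m are shown because the heavy and the light chain gene hold the same spaced pair of letters, and H2-M2 because it changed most of the 10 genes in cultures and lacks that pair. Capitals mark each match, on either strand, of TGACG (the core of the cyclic AMP response element, CGTCA on the other strand), of CCAAT (the core of the Y box, ATTGG on the other strand), of GGGANTTCC (an NF-kappa-B motif) and of GGGATTCCC, a kB-like palindrome added after the sequences were seen. All are written 5′ to 3′ on the gene's own strand and end at the base before the start, except that of B2m, printed to 1 base short of it.
H2-K1, chr17:34000348-34000597, minus strand: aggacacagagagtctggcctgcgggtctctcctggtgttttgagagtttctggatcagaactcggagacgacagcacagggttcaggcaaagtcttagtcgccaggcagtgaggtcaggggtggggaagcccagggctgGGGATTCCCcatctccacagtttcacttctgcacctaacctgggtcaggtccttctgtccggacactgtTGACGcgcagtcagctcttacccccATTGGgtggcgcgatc
B2m, chr2:122147437-122147685, plus strand: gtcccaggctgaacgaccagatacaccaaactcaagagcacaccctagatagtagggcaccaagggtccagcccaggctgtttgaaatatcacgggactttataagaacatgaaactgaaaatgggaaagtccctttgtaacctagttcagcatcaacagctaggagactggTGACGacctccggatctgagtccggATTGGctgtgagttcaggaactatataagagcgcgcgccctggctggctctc
H2-M2, chr17:37483555-37483804, minus strand: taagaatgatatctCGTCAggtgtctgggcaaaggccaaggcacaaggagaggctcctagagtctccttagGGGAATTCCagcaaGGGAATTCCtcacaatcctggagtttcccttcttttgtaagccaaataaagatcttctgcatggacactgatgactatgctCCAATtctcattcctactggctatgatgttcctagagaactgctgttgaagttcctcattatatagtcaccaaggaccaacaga

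The pair is TGACG followed by ATTGG starting 25 bases after it, the order and orientation of the X2 and Y boxes of the class I module. It begins 41 bases before the start of H2-K1, 101 before that of H2-D1 and 78 before that of B2m. H2-M2 is set beside them with the stretch of its window, of the same length, most like that of H2-K1. Capitals mark the pair.
H2-K1, chr17:34000359-34000388, minus strand: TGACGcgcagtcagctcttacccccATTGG
H2-D1, chr17:35262993-35263022, plus strand: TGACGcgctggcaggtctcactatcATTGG
B2m, chr2:122147609-122147638, plus strand: TGACGacctccggatctgagtccggATTGG
H2-M2, chr17:37483619-37483648, minus strand: tgactatgctccaattctcattcctactgg
Of the 30 bases, H2-D1 shared 23 with H2-K1, H2-M2 shared 16 and B2m shared 13. The pair was searched for after the sequences were seen. It was present in 30 of 32851 mouse promoter windows (0.0913%), which belong to 26 genes, H2-M3 among them. The kB motif GGGANTTCC was present in 1.43% of windows and occurred 2 times in that of H2-M2, and GGGATTCCC (0.301% of windows) occurred in those of H2-K1 and H2-D1. GAAANNGAA, part of the interferon-stimulated response element (7.13% of windows), was in that of B2m. TGACG was in 6 of the 8 windows (17.8% of all windows), CCAAT in 7 (33.8%), and GGAAA, the NFAT core (55.6%), in 5. The windows of Tap1 and Psmb9 overlap, because only 225 bases lie between their starts. Their matches of these motifs fell on the same bases and were counted for both genes. The 8 windows are therefore not independent, and these counts were not tested against the shares of all windows. A match is a string of letters and not evidence of binding.

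Levels were compared between genes per kilobase of exon (RPKM, the CPM divided by the exon length in kilobases). The length counts all annotated exons of a gene together. It was 5476 bases for Tap1, whose longest coding transcript has 2953, and 1551 for H2-M2, whose longest has 1550. Orders and ratios between genes of nearby level thus depend on the length chosen. In Lyz2-Cre livers the order was B2m at 1527 ± 142 RPKM (SD, n = 4), H2-K1 at 272.6 ± 16.7, H2-D1 at 255 ± 19.1, Tapbp at 16.5 ± 2.10, Psmb8 at 5.58 ± 1.05, Tap2 at 3.37 ± 0.505, Psmb9 at 1.95 ± 0.264, Tap1 at 1.87 ± 0.220, Nlrc5 at 0.889 ± 0.109 and H2-M2 at 0.882 ± 0.486. Neighbours in that order that overlapped between livers were H2-K1 with H2-D1, Psmb9 with Tap1, and Nlrc5 with H2-M2. The structural chains of the displayed complex thus stood far above the machinery that loads it.

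The cultures had the same leading genes. In controls of the ASK1 set B2m stood at 5218 ± 9.92 RPKM (n = 3), H2-D1 at 1465 ± 31.5 and H2-K1 at 747.6 ± 6.88, and in controls of the NFATc3 set at 2461 ± 130, 714 ± 47.2 and 199.7 ± 7.87. H2-M2 was the gene whose place moved most. It was the lowest of the 10 in Lyz2-Cre livers and in the NFATc3 set, where 5 of 6 libraries had 0 counts and NFATc3-MKI replicate 2 had 1. The 3 counts that could have gone unseen allow up to 0.122 CPM in the controls of that set. In controls of the ASK1 set it was at 36.7 ± 0.827 RPKM, by this length above Tap1, both immunoproteasome subunits, Nlrc5 and Tap2. Its place relative to Tap1 depends on the length used for Tap1. The immune subunit Psmb8 was at 0.0760 ± 0.020 of the level per length of Psmb5, which it replaces, in Lyz2-Cre livers (n = 4), at 0.30 ± 0.017 in ASK1 set controls (n = 3) and at 1.19 ± 0.055 in NFATc3 set controls (n = 3).

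**Figure D1:**
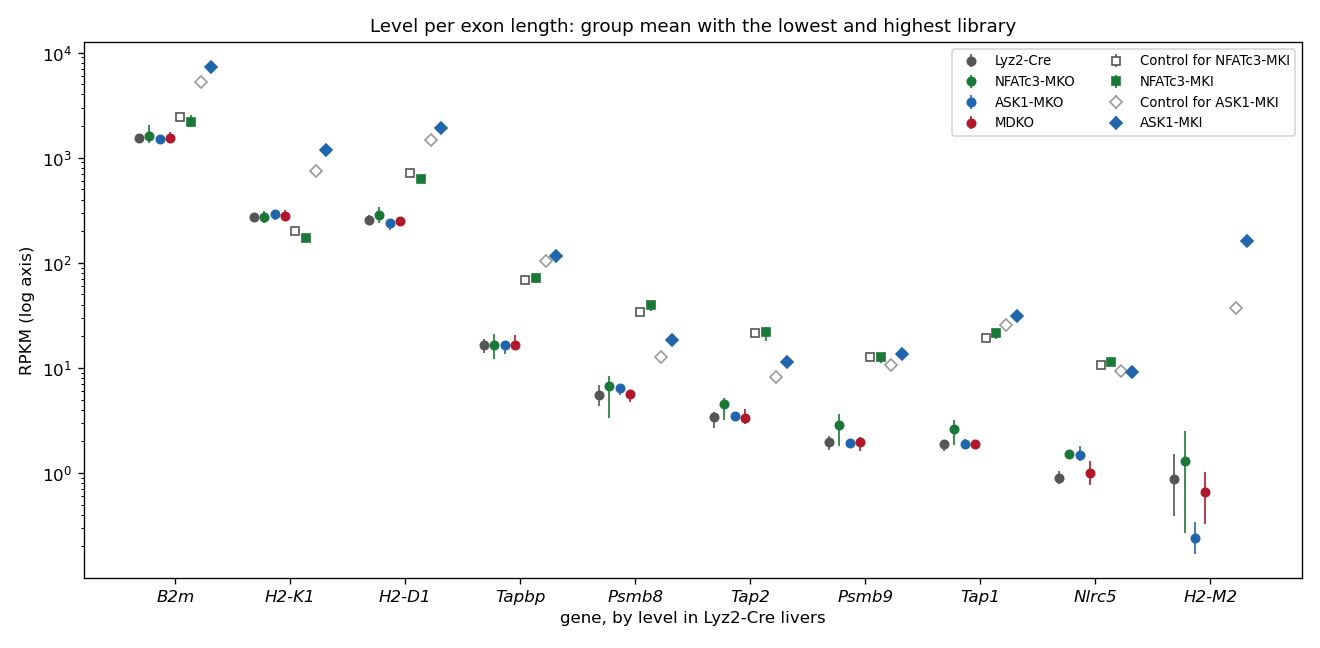
Mean level per exon length (RPKM, log axis) of each of the 10 genes in 4 liver and 4 culture groups, with a line from the lowest to the highest library. B2m, H2-K1 and H2-D1 lead in every group, and H2-M2, below 3 RPKM in livers, reached 161 RPKM in ASK1-MKI cultures. It is not drawn for the NFATc3 set, where 5 of 6 libraries had 0 counts.

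Nlrc5, the class I regulator, was the only 1 of the 10 genes that passed the test against Lyz2-Cre in either single-gene knockout. Its level in the 4 Lyz2-Cre livers was 7.44, 8.84, 6.64 and 7.27 CPM (replicates 1 to 4, no order implied). In livers labelled NFATc3-MKO it was 14.0, 13.3, 12.2 and 11.5 CPM, and in livers labelled ASK1-MKO 11.9, 15.2, 11.8 and 11.1. All 8 single-knockout livers lay above all 4 controls. In livers labelled MDKO it was 6.57, 11.0, 7.26 and 9.12 CPM, which overlapped the controls and lay below all 8.

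On the log2 scale Nlrc5 was higher by 0.76 ± 0.16 (SE; 95% interval 0.45 to 1.07) in NFATc3-MKO livers, with an edgeR quasi-likelihood adjusted p of 0.0105. That is 1 of 10 genes called, where 3.77% of the 13309 genes tested were called higher. In ASK1-MKO livers it was higher by 0.73 ± 0.16 (interval 0.42 to 1.04, edgeR adjusted p = 0.00957), again 1 of 10 genes, where 4.46% of genes were called higher. Both comparisons use the same 4 control livers. Against Lyz2-Cre, 0 of 10 genes were called in MDKO livers (Nlrc5 0.18 ± 0.16, interval −0.14 to 0.49), where 0% of all genes were called with edgeR, and DESeq2 and voom also called 0. Only 35 of 13309 genes had an unadjusted p under 0.05 there, where uniform p-values would give 665, and same-numbered MDKO and Lyz2-Cre livers deviated together (r of 0.24 to 0.53). By this count the 2 groups lay close together relative to the spread pooled over the 4 groups. Genes that vary together are not independent, so the count is a description and not a test. The cause was not tested, and each MDKO comparison and the interaction rest on these MDKO libraries. The call in NFATc3-MKO was lost without Lyz2-Cre replicate 3 (log2 change 0.70, edgeR adjusted p = 0.0505), while that in ASK1-MKO was kept in all 15 alternatives.

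Nlrc5 was lower in MDKO livers than in either single-gene group. The log2 change was −0.58 ± 0.16 against NFATc3-MKO (edgeR adjusted p = 0.0358), the call of 1 of 10 genes where 3.29% of genes were called lower, and −0.55 ± 0.16 against ASK1-MKO (edgeR adjusted p = 0.0418), again 1 of 10 where 4.26% were called lower. Each of these calls was lost in 8 of 15 alternatives. Without any 1 of the NFATc3-MKO replicates 1, 2 and 3 or the MDKO replicates 1, 3 and 4 the first had edgeR adjusted p of 0.0565 to 0.111, and without any 1 of the ASK1-MKO replicates 1, 2 and 3 or the MDKO replicates 1, 3 and 4 the second had 0.0587 to 0.128. The interaction, which by label asks whether the NFATc3 knockout acts differently in the ASK1 knockout, was −1.31 ± 0.22 (interval −1.75 to −0.87, edgeR adjusted p = 0.00105). It was the call of 1 of 10 genes where 8% of genes were called lower, and was kept in all 22 alternatives, at adjusted p of 1.86e-06 to 0.00364.

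**Figure D2:**
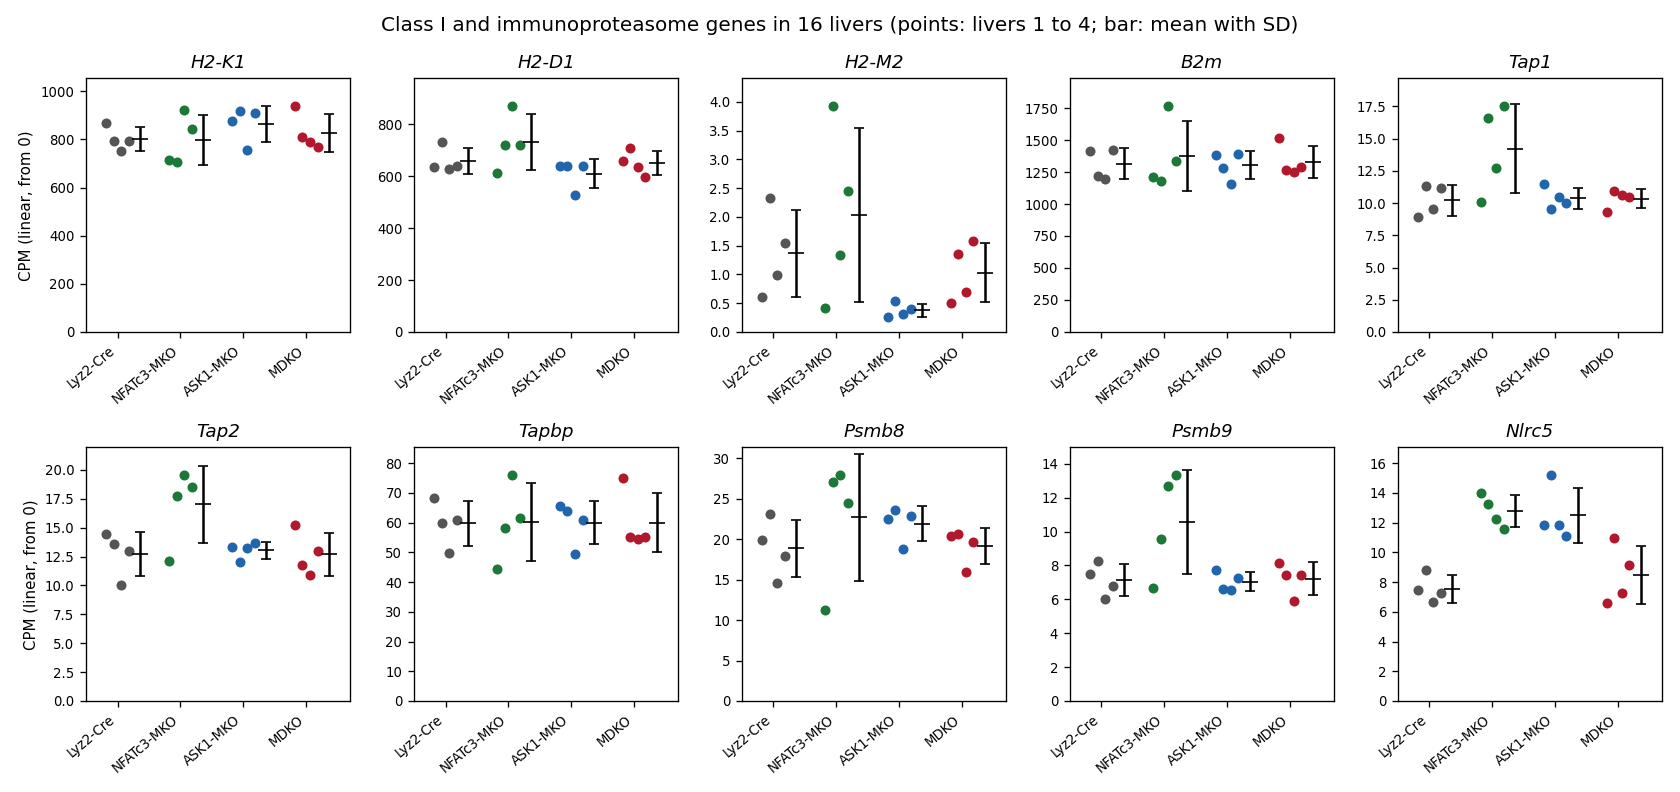
CPM of each of the 10 genes in 16 livers, by group, with linear axes from 0; points are livers, and the bar is the mean with SD. Nlrc5 was above 11 CPM in all 8 NFATc3-MKO and ASK1-MKO livers and at 6.57 to 11.0 CPM in the other 8, and the NFATc3-MKO livers were widely spread for Tap1, Psmb8 and Psmb9.

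The classical heavy chains and B2m were at like levels in all 4 liver groups. H2-K1 was at 801 ± 49.1 CPM in Lyz2-Cre, 796 ± 104 in NFATc3-MKO, and ran from 705 to 940.5 CPM over the 16 livers. H2-D1 ran from 525.7 to 872 and B2m from 1155 to 1769 CPM. Against Lyz2-Cre the log2 changes of these 3 genes lay between −0.11 and 0.15 in the 3 knockout groups, and their 9 intervals at 95% all lay within −0.35 to 0.39. H2-K1 and H2-D1 share 8.79% and 14.3% of their 50-base words with other annotated transcripts, among them those of H2-Q1, so their counts depend on how reads matching several genes were assigned.

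The transporter subunits were higher in 3 of 4 NFATc3-MKO livers, and neither passed the test. Tap1 was at 8.89, 11.3, 9.54 and 11.2 CPM in Lyz2-Cre livers and at 10.08, 16.6, 12.7 and 17.6 in NFATc3-MKO livers. Tap2 was at 14.5, 13.6, 10.06 and 12.9 CPM in Lyz2-Cre and at 12.1, 17.8, 19.6 and 18.5 in NFATc3-MKO livers. For both, NFATc3-MKO replicates 2, 3 and 4 lay above every control and replicate 1 lay among them. The log2 changes were 0.48 ± 0.16 for Tap1 (edgeR adjusted p = 0.0639) and 0.41 ± 0.15 for Tap2 (edgeR adjusted p = 0.0982). In ASK1-MKO livers they were 0.02 and 0.03, and in MDKO livers 0.01 and 0.00. Tapbp, at 44.6 to 76.2 CPM over the 16 livers, differed from Lyz2-Cre by at most 0.01 on the log2 scale in each group, with intervals of −0.30 to 0.32.

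The immunoproteasome subunits divided the NFATc3-MKO livers in the same way. Psmb9 was at 7.48, 8.29, 6.03 and 6.76 CPM in Lyz2-Cre livers and at 6.66, 9.57, 12.7 and 13.4 in NFATc3-MKO livers. Psmb8 was at 19.9, 23.1, 14.6 and 17.9 CPM in Lyz2-Cre livers and at 11.2, 27.1, 28.0 and 24.5 in NFATc3-MKO livers, where replicate 1 was the lowest of all 16 livers. The log2 changes were 0.56 ± 0.19 for Psmb9 (edgeR adjusted p = 0.0666) and 0.26 ± 0.22 for Psmb8 (edgeR adjusted p = 0.456). Without NFATc3-MKO replicate 1 the edgeR adjusted p was 0.0133 for Tap1, 0.0185 for Tap2, 0.0372 for Psmb8 and 0.00985 for Psmb9, and 5 of 10 genes were then called in place of 1. Voom with quality weights called Tap1, Tap2 and Psmb9 with all livers kept. Over all genes, the calls in this comparison moved too. They were 1124 in the fit reported, 268 to 1585 with 1 liver left out and 218 to 2628 in the other alternatives. The calls of the 10 genes are not set against the share of all genes in each such fit. Against ASK1-MKO livers Psmb9 stood at 0.59 ± 0.18 (edgeR adjusted p = 0.0452), a call lost in 10 of 15 alternatives. These included leaving out any NFATc3-MKO liver other than replicate 1, or any ASK1-MKO liver (edgeR adjusted p 0.054 to 0.134). In MDKO livers Tap1, Tap2 and Psmb9 were at −0.46, −0.41 and −0.54 against NFATc3-MKO livers, with edgeR adjusted p of 0.0753 to 0.102, and their interactions were −0.48, −0.45 and −0.52, with 0.148 to 0.199.

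The same replicate stood apart in markers of several cell types. The summed level of 6 genes of monocytes and lipid-associated macrophages was 122 CPM in NFATc3-MKO replicate 1 and 809, 481 and 411 in replicates 2, 3 and 4, against 87.8 to 241 in Lyz2-Cre livers. Summed over 6 neutrophil genes, it was 5.99 CPM in replicate 1 and 37.6, 18.2 and 11.4 in the others, against 1.78 to 8.37 in Lyz2-Cre livers. By the test, 1 of 6 monocyte genes, 2 of 3 tested neutrophil genes and 0 of 7 general macrophage genes were higher in NFATc3-MKO livers, none of the first and last list was at 0, and 0 of 10 T and NK cell genes was called. T and NK cell genes summed to 4.06 CPM in replicate 1 and 13.3, 6.36 and 6.98 in the others (3.37 to 6.71 in Lyz2-Cre livers). Macrophage genes summed to 156 CPM in replicate 1 and 750, 213 and 302 in the others (128 to 368 in Lyz2-Cre livers). For dendritic cell genes it was 10.2 CPM and 49.0, 15.7 and 20.6 (10.6 to 23.2 in Lyz2-Cre livers). The called monocyte gene, Spp1, made up 266 CPM on average and is also in the bile duct list. In the neutrophil list Mpo was at 0 in Lyz2-Cre livers. B and plasma cell genes summed to 17.5 to 55.7 CPM, against 7.25 to 12.2 in Lyz2-Cre livers, with 2 of 5 tested genes higher. Bile duct genes summed to 95.6 CPM in replicate 1 and 352, 400.4 and 323 in the others, against 63.5 to 130 in Lyz2-Cre livers, with Epcam and Spp1 called higher. Called lower were 2 of 6 Kupffer cell genes, Clec4f (−1.14) and C6 (−0.91), and 1 of 6 endothelial genes, Clec4g (−0.68). Of 7 hepatocyte genes 1 was called lower, the regulator Hnf4a (−0.55), and 0 genes of these 3 lists were called higher. The Kupffer gene Marco (0.02) and the endothelial Lyve1 (0.29) had changes above 0. The part of these cells in the levels of Nlrc5, Tap1, Tap2, Psmb8 and Psmb9 was not tested. In replicate 1, where Nlrc5 was at its highest of the group (14.0 CPM), the monocyte, neutrophil and bile duct sums were the lowest, and the Kupffer (227 against 174 to 194 CPM), endothelial (150.1 against 101 to 113) and hepatocyte (114800 against 75320 to 112400) sums the highest. In ASK1-MKO livers the macrophage sum (141 to 202 CPM) lay inside the range of the controls (128 to 368, the highest being replicate 2), with 0 of 7 genes called. The mean sum was 167 CPM, against 223 in the controls. Of the 7 genes, 1 had a change above 0, and the median log2 change was −0.49 against −0.03 over all genes. Of 6 Kupffer cell genes 1 had a change above 0 there, and 0 were called.

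H2-M2, scarce in liver at 6 to 104 counts, was lowest in livers labelled ASK1-MKO. Its levels there were 0.265, 0.533, 0.306 and 0.395 CPM, and in Lyz2-Cre livers 0.603, 2.34, 0.982 and 1.55. The groups did not overlap, but the difference of −1.85 ± 0.60 on the log2 scale did not pass (edgeR adjusted p = 0.0644). With the 2 groups fitted alone the adjusted p was 0.02, with the DESeq2 Wald test 0.0189, with voom 0.0441 and with a replicate block 0.00376. NFATc3-MKO livers were at 0.419, 3.94, 1.33 and 2.46 CPM and MDKO livers at 0.509, 1.35, 0.691 and 1.58. Between NFATc3-MKO and ASK1-MKO livers H2-M2 was called, at 2.41 ± 0.58 (edgeR adjusted p = 0.0141), and remained called in all 15 alternatives, although NFATc3-MKO replicate 1 lay within the ASK1-MKO range. H2-M2 and Psmb9 were the 2 of 10 genes called in this comparison, where 7.15% of genes were called higher.

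**Figure D3:**
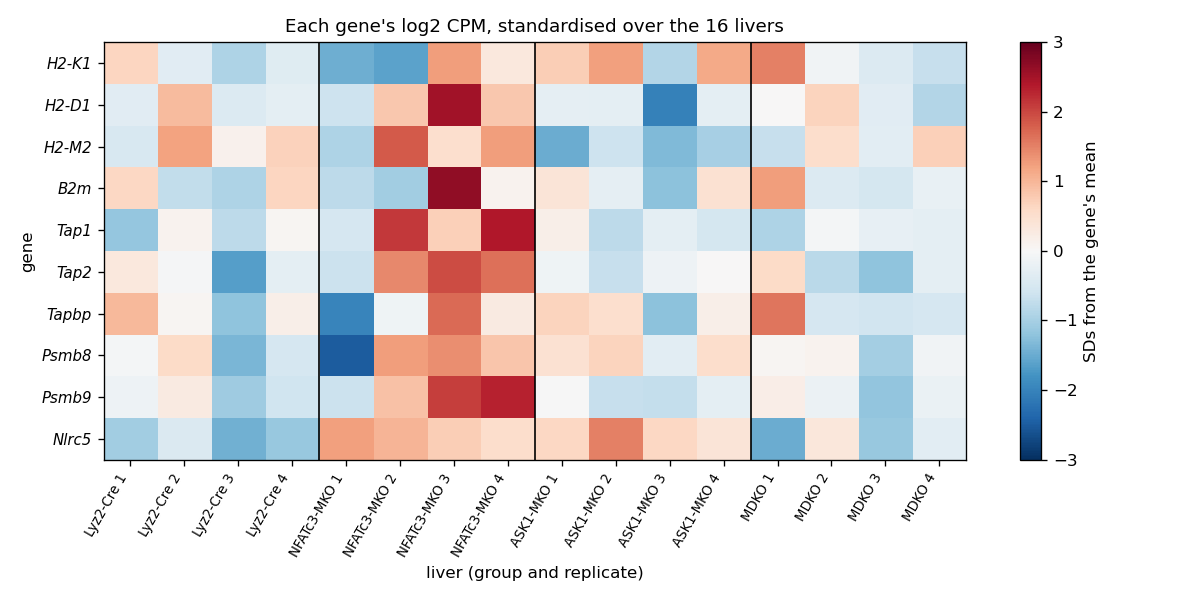
Log2 CPM of each gene in each of the 16 livers, standardised per gene over the 16 (colour: SDs from the gene's mean, red higher). NFATc3-MKO replicates 2 to 4 are red for Tap1, Tap2, Psmb8 and Psmb9, and replicate 1 is blue for the same genes. The Nlrc5 row is red in all 8 NFATc3-MKO and ASK1-MKO livers and also in MDKO replicate 2 (0.343 SDs above the mean).

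Over the 16 livers the 10 genes tended to vary together. Of their 45 pairs, 37 had a Pearson r above 0, with a median of 0.506. After each group's mean was taken out, the figures were 36 and 0.515. The same figures were not made for other genes, so this is not shown to be particular to the 10. The closest pair was Tap2 with Psmb9 (r = 0.918), and the farthest apart were H2-K1 and H2-M2 (r = −0.339). Nlrc5 had r of 0.299 to 0.390 with Tap1, Tap2, Psmb8 and Psmb9, 0.142 with H2-D1, and −0.125 to −0.0315 with Tapbp, B2m, H2-M2 and H2-K1. With group means taken out, its r was 0.005 with Tap1, −0.256 with Tap2, 0.087 with Psmb8 and −0.11 with Psmb9. It was then 0.146 with H2-D1, 0.36 with H2-M2, and −0.338 to −0.25 with Tapbp, B2m and H2-K1. These values describe livers that share library, depth and scaling within each point, and no p is given. Among 13299 other genes, those whose log2 CPM was most like the mean standardised level of the 10 genes over the 16 livers were Plscr3 (r = 0.937, Spearman rho = 0.918), Phlda3 (0.903 and 0.856), S100a6 (0.900 and 0.918), Haghl (0.897 and 0.888) and Igfbp7 (0.889 and 0.932).

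Other genes of the pathway were looked at in the same livers. Of all 13309 genes tested, 1124 were called in NFATc3-MKO and 1126 in ASK1-MKO livers against Lyz2-Cre. Those called higher were 3.77% and 4.46% of all genes. Of 14 tested further class I and class I-like genes, 0 were called higher and 1 lower in NFATc3-MKO livers (median log2 change −0.00 against 0.03 over all genes), and 1 higher and 2 lower in ASK1-MKO livers (−0.16 against −0.03). H2-Q1, a non-classical heavy chain, was at 29.0 ± 3.46 CPM in Lyz2-Cre livers, 14.8 ± 6.29 in NFATc3-MKO, 13.4 ± 1.76 in ASK1-MKO and 28.0 ± 4.67 in MDKO livers (n = 4 each). Its changes from Lyz2-Cre were −0.97 and −1.11 (edgeR adjusted p = 0.0147 and 0.00534) and its interaction 2.03 ± 0.31 (edgeR adjusted p = 0.000515), so its means were lower where those of Nlrc5 were higher. H2-Q1 shares words with H2-K1 and H2-D1, so its value too depends on how reads were assigned. In ASK1-MKO livers H2-Q7 was at 0.54 on the log2 scale and Cd1d1, which presents lipids, was at −0.65 (edgeR adjusted p = 0.00499 and 0.00409).

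Of 23 tested inducers and regulators, 1 was called higher and 1 lower in NFATc3-MKO livers, and 0 and 1 in ASK1-MKO livers. Stat2, part of the type I interferon signal, was at 34.2 ± 3.29 CPM in Lyz2-Cre, 23.5 ± 1.76 in NFATc3-MKO, 24.6 ± 1.32 in ASK1-MKO and 33.9 ± 1.52 in MDKO livers. Its changes were −0.54 and −0.48 (edgeR adjusted p = 0.00571 and 0.00625) and its interaction 1.01 ± 0.14 (edgeR adjusted p = 0.000225). Ifngr2, a chain of the interferon-gamma receptor, was higher in NFATc3-MKO livers, by 0.54 (edgeR adjusted p = 0.0264), and at −0.03 in ASK1-MKO livers. Of 30 proteasome genes, 2 were called in NFATc3-MKO livers (Psma5 0.44 and Psmc6 0.35, both higher) and 1 in ASK1-MKO livers (Psmc6 0.35). Of 10 loading and trimming genes, 0 were called in either; the chaperones Hspa5 and Calr were at 0.52 and 0.32 in NFATc3-MKO livers and at 0.68 and 0.30 in ASK1-MKO livers. In MDKO livers 0 genes of these lists were called against Lyz2-Cre, where 0% of all genes were. Over all genes, 8% were called lower in the interaction, and 7.15% higher between NFATc3-MKO and ASK1-MKO livers. In the interaction 3 of the 10 loading genes were called lower and 0 higher: the chaperone Hspa5 (−1.26 ± 0.35, edgeR adjusted p = 0.0214), the disulfide isomerase Pdia3 (−0.75, 0.0234), which joins tapasin in the loading complex, and the translocon subunit Sec61a1 (−0.84, 0.0304). Psmc6 (−0.67) and Psma5 (−0.64) were the 2 of 30 proteasome genes called there, both lower. Between NFATc3-MKO and ASK1-MKO livers 27 of 30 proteasome genes had a change above 0, with a median of 0.25 against 0.02 over all genes, and 2 were called, Psmc4 (0.55) and Psma4 (0.48). Irf1, a direct inducer of class I genes, was at 0.75 in that comparison (edgeR adjusted p = 0.0355).

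In cultures labelled ASK1-MKI, 9 of the 10 genes were higher than in their controls and the tenth, Nlrc5, was not called. Of the 11380 genes tested in this comparison, 24.6% were called higher. The median log2 change was 0.42 over the 10 genes and 0.00 over all genes. The cultures of a group were close to each other: the squared difference between replicates was 1.59 to 1.99 times that of pure counting noise per gene, against 11.1 to 137 between livers of a group. Nothing in the labels says that the 3 cultures or 4 livers of a group came from separate mice, so the p-values measure only the spread between these samples, which may be technical, and in this set small changes pass the test.

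H2-M2 changed most of the 10. It was at 56.4, 56.1 and 58.5 CPM in the controls and at 237.9, 253 and 259 CPM in ASK1-MKI cultures. The log2 change was 2.13 ± 0.03 (interval 2.07 to 2.20, edgeR adjusted p = 1.72e-92), a 4.39-fold higher level, and the 20th highest change among 11380 genes. Of its 50-base words, 1.67% occurred in other annotated transcripts. The classical heavy chain H2-K1 was at 2210, 2173 and 2207 CPM in the controls and at 3410, 3521 and 3460 in ASK1-MKI cultures, a log2 change of 0.66 ± 0.02. H2-D1 rose from 3762, 3706 and 3866 to 5057, 4998 and 4933 CPM (0.40 ± 0.02). B2m, the light chain shared by all class I molecules, rose from 4484, 4481 and 4497 to 6146, 6305 and 6189 CPM (0.47 ± 0.02). For none of these 4 genes did the groups overlap. How many of all 11380 genes also had no overlap was not counted.

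The loading machinery was also higher. Tap1 was at 146, 136 and 139 CPM in the controls and at 169, 175 and 164 in ASK1-MKI cultures (log2 change 0.27 ± 0.03, edgeR adjusted p = 1.06e-13). Tap2 was at 33.6, 28.8 and 31.3 CPM in the controls and at 45.3, 41.3 and 41.4 in ASK1-MKI cultures (0.45 ± 0.06). Tapbp went from 378, 370 and 386 to 429, 430.1 and 411 CPM (0.16 ± 0.02). The immunoproteasome subunits followed: Psmb8 went from 43.0, 40.2 and 44.9 to 57.8, 60.8 and 67.3 CPM (0.54 ± 0.05), and Psmb9 from 38.5, 40.6 and 37.9 to 49.0, 51.4 and 47.4 CPM (0.34 ± 0.05). All 5 were higher in 3 of 3 ASK1-MKI cultures than in any control. The share of all genes that separated in this way was not counted, and cultures of a group lay close together. Nlrc5 was at 80.6, 80.7 and 77.3 CPM in the controls and at 80.5, 75.8 and 76.3 in ASK1-MKI cultures, a difference of −0.04 ± 0.04 (interval −0.12 to 0.04, edgeR adjusted p = 0.466). With an added limit of 1.25-fold, chosen after the data were seen, 7 of the 10 genes were called higher, without Tap1 and Tapbp, where 8.26% of all genes were.

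**Figure D4:**
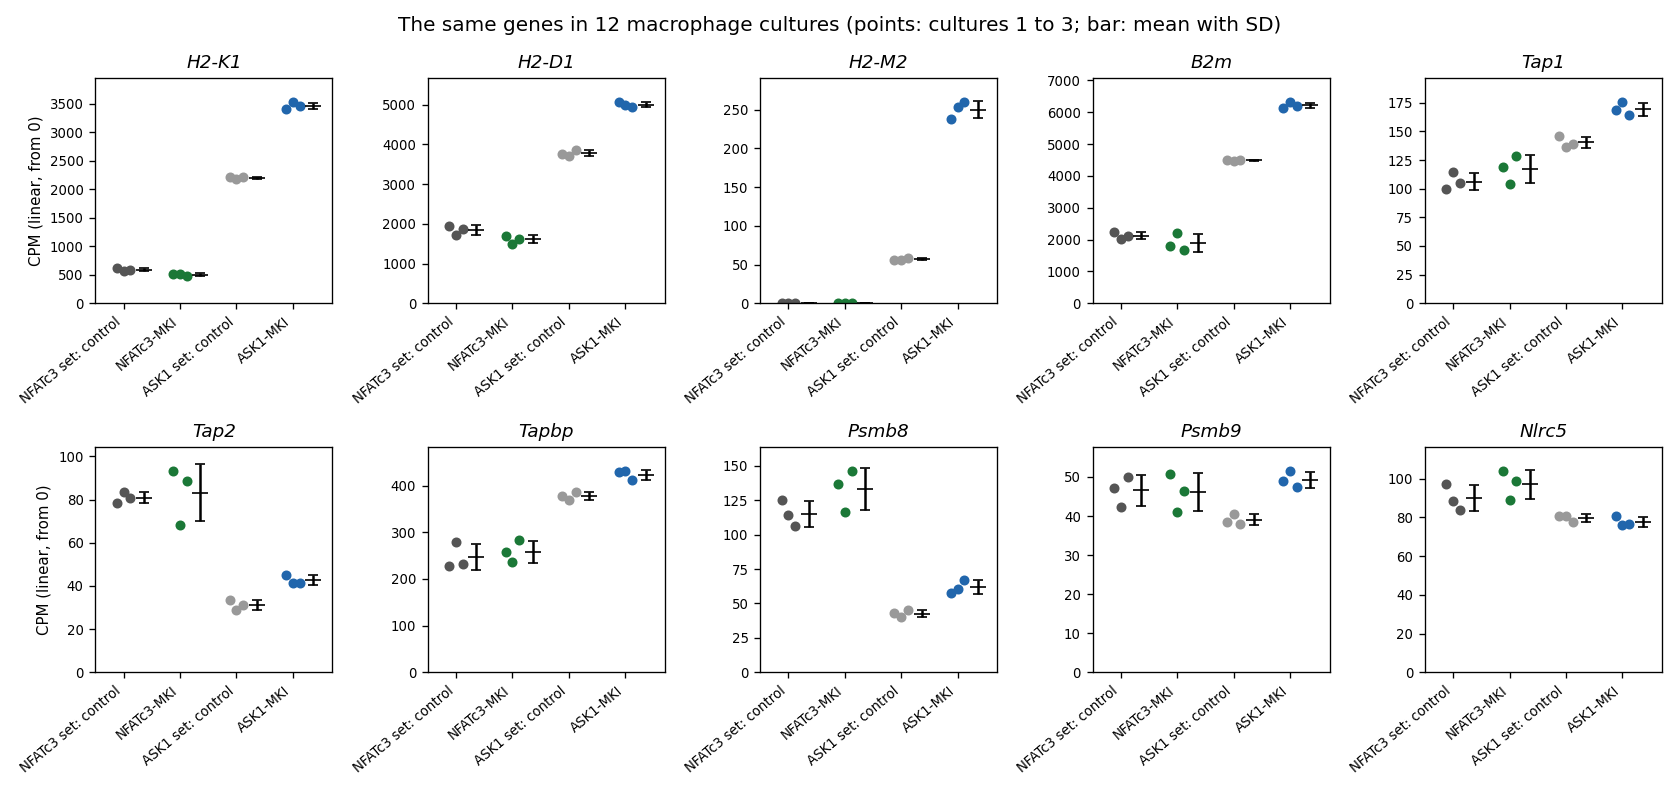
CPM of each of the 10 genes in 12 macrophage cultures, by group, with linear axes from 0; points are cultures, and the bar is the mean with SD. The ASK1-MKI cultures lie above all 3 of their controls for every gene but Nlrc5; the 2 sets were counted separately and are shown side by side only.

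The rest of the pathway was higher in most parts in ASK1-MKI cultures. Of 30 proteasome genes, 28 were called higher and 0 lower, with a median log2 change of 0.33. They included Psme2 (0.85 ± 0.03) and Psme1 (0.50), the subunits of the interferon-induced proteasome activator, the core subunit Psma6 (0.54) and the cap ATPase Psmc5 (0.61). Psmb10, named after its value was seen because it is the third exchanged catalytic subunit, was at 0.58 and the constitutive counterparts Psmb7, Psmb5 and Psmb6, named with it, were called higher too, at 0.29, 0.49 and 0.43. Psmb8 stood at 0.312 ± 0.030 of the level per length of Psmb5 in ASK1-MKI cultures and at 0.30 ± 0.017 in controls (n = 3 each), which overlapped. For Psmb9 and Psmb6 the ratio was 0.143 ± 0.0097 in controls and 0.134 ± 0.0033, also overlapping, and for Psmb10 and Psmb7 it was 1.62 ± 0.095 and 1.98 ± 0.088, without overlap.

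Of 12 tested further class I genes, 8 were called higher and 1 lower, with H2-T23 at 0.75, H2-T10 at 1.10, Cd1d1 at 0.67 and Mr1, which presents vitamin metabolites, at 0.40. H2-T10 has near-identical copies, so its value depends on how reads were assigned. Of 10 loading and trimming genes, 5 were called higher and 1 lower, by less than 0.28: Calr was at 0.27, Sec61a1 at 0.22, Pdia3 at 0.19 and the peptide-trimming protease Erap1 at 0.16. The 24 tested inducers and regulators had no common direction, with 7 called higher and 9 lower and a median of −0.02. Irf7 (0.76) and Irf9 (0.39), which carry interferon signals, were higher, whereas Jak2 (−0.91), a kinase of the interferon-gamma receptor, and Ciita (−1.90), the class II counterpart of Nlrc5, were lower. Markers of other cells moved in the same comparison. The summed level of 6 neutrophil genes was 92.9 to 97.2 CPM in the controls and 28.4 to 29.2 in ASK1-MKI cultures, with 4 of 4 tested genes lower and Ly6g at 0 in the controls, and of 5 B and plasma cell genes 1 was higher and 4 were lower (sums of 11.7 to 13.8 and 8.22 to 9.90 CPM). Of 3 tested dendritic cell genes, Itgax, also expressed by some macrophages, went from 11.7 to 61.6 CPM, Ccr7 from 2.52 to 0.137, and Clec9a was not called. Kupffer cell genes were lower in 3 of 3 tested, with a sum of 879 to 903 CPM in the controls and 288 to 307 in ASK1-MKI cultures. Clec4f was at 0 in both groups, and C6 was at 0 in ASK1-MKI cultures only. The sum of 7 macrophage genes was 33490 to 35820 CPM in the controls and 35750 to 37750 in ASK1-MKI cultures, with 5 genes higher and 1 lower. Their part in the class I changes was not tested.

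Cultures labelled NFATc3-MKI showed no such shift. Of 9 genes tested, 1 was called, H2-K1, where 16.8% of the 13363 genes tested were called lower. It was at 611, 565.7 and 583 CPM in the controls and at 516, 514 and 475 in NFATc3-MKI cultures, a log2 change of −0.23 ± 0.08 (interval −0.39 to −0.06, edgeR adjusted p = 0.0416), with every NFATc3-MKI culture below every control. The edgeR adjusted p was 0.132 when control replicate 1 was left out, 0.113 when control 3 was, and 0.077 and 0.192 when NFATc3-MKI cultures 1 and 3 were. It was 0.0668 without the filter on low counts, and the change was under the 1.25-fold limit.

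The other chains were at −0.20 ± 0.09 (H2-D1, edgeR adjusted p = 0.106) and −0.16 ± 0.10 (B2m, edgeR adjusted p = 0.241). H2-D1 was at 1954, 1713 and 1859 CPM in the controls and at 1697, 1500.4 and 1629 in NFATc3-MKI cultures, without overlap. Psmb8 was at 125, 114 and 106 CPM in the controls and at 137, 117 and 146 in NFATc3-MKI cultures (0.21 ± 0.10, edgeR adjusted p = 0.0963). Without NFATc3-MKI replicate 2, the calls were H2-K1, B2m (−0.28, edgeR adjusted p = 0.0166), Tap1 (0.22, 0.0438) and Psmb8 (0.30, 0.0074), the first 2 lower and the last 2 higher. The changes of Tap1, Tap2, Tapbp, Psmb9 and Nlrc5 with all cultures lay between −0.02 and 0.14, and none was called.

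In the NFATc3-MKI comparison 4452 of all 13363 genes tested were called, 2249 of them lower and the rest higher. Of the 30 proteasome genes, 18 were called higher and 0 lower in NFATc3-MKI cultures (median 0.27 against −0.00 over all genes). Among them Psmc2 was at 0.65, Psma6 at 0.52, Psma4 at 0.45 and Psmc4 at 0.47. Most of those genes belong to the core and cap common to all proteasomes. Of 15 tested further class I genes, 1 was higher (H2-T24, 0.48) and 2 were lower (H2-Q4, −0.59, and H2-Bl, −1.17). Of 10 loading and trimming genes, 3 were higher (Hspa5 0.67, Sec61a1 0.34 and Erap1 0.25) and 0 lower. Of 22 inducers and regulators, 3 were higher and 4 lower: among them Irf7 was at 0.72, while Creb1 was at −0.60 and Rfx5, which binds the X box of class I and II promoters, at −0.76. Of 6 tested macrophage genes, 5 were higher (summed level 1525 to 1631 CPM in controls and 1943 to 2131 in NFATc3-MKI cultures), and Mertk was at 0 or 1 count. Of 4 tested genes of the monocyte and lipid-associated list, Spp1 went from 4258 to 19204 CPM and Trem2 from 73.1 to 95.2, both called higher, while Gpnmb (0.16) and Cd9 (0.15) were not called. Neutrophil genes were near 0, at a sum of at most 0.266 CPM. The part of these shifts in the values above was not tested.

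**Figure D5:**
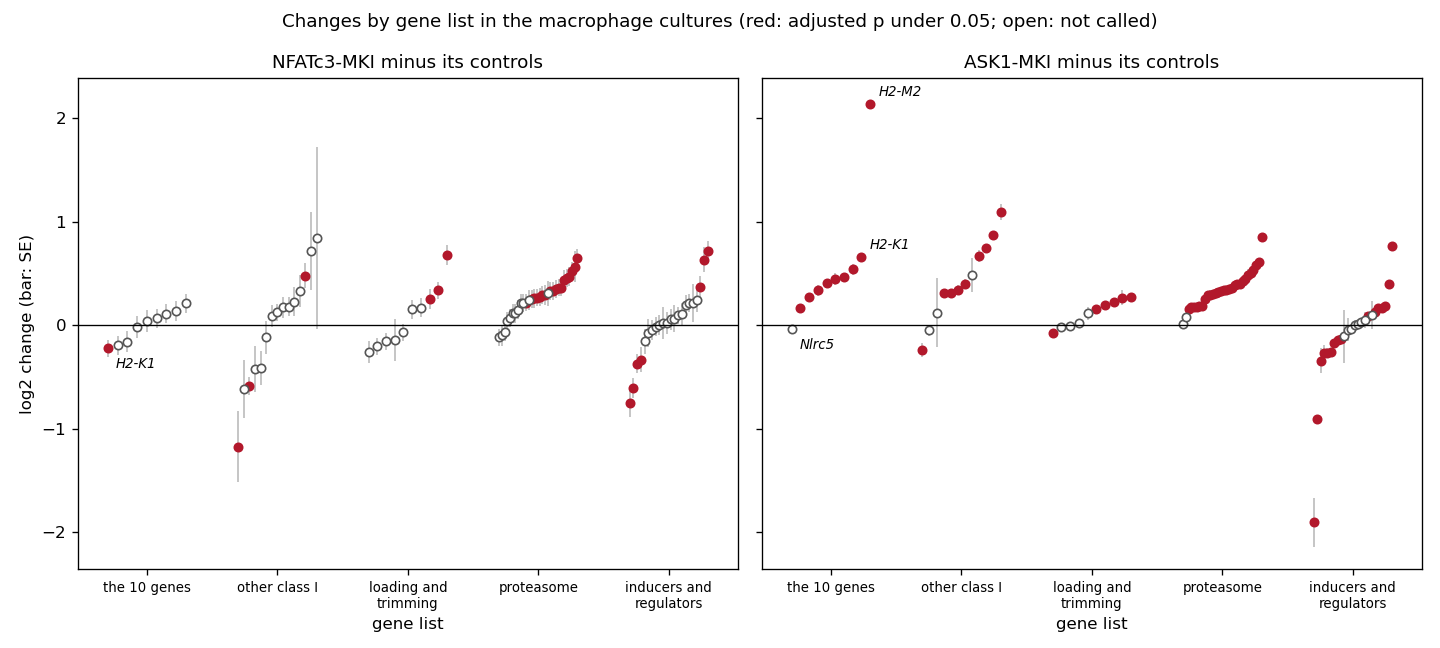
Log2 change with SE (vertical axis) of each tested gene, by list, in NFATc3-MKI cultures (left) and ASK1-MKI cultures (right) against their own controls; red points had an adjusted p under 0.05. In the ASK1 set 9 of the 10 genes and 28 of 30 proteasome genes lie above 0 in red; in the NFATc3 set 18 proteasome genes do, and of the 10 genes only H2-K1 is red, below 0.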

How the data were processed

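Per the labels' protocols, RNA was taken up in TRIzol, messenger RNA was selected and dUTP (strand-specific) libraries were made. Reads were aligned with HISAT2 to mm10, per the submitters' processing notes. Which program, annotation and strand setting made the counts is not given in the sources used here. Expected counts were deposited by the authors for livers (estimates, 85.42% of them whole; rounded here), and raw counts were deposited for cultures. Culture genes were named by Ensembl identifier from GENCODE M21 (mm10), which also gave positions and exon lengths, and promoter sequences came from RefSeq (GRCm38.p6). No column lacked a sample.

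Each table was fitted alone with edgeR 4.0.16 in R 4.3.3 (filterByExpr, trimmed mean of M values, robust quasi-likelihood F test), all 16 livers in a single fit, leaving 13309, 13363 and 11380 genes. A gene was called at a Benjamini-Hochberg adjusted p under 0.05 over all genes tested. Changes are log2, first group minus second, SE is the change divided by the square root of F, and CPM uses the scaled library sizes. The interaction is the difference of MDKO from NFATc3-MKO less that of ASK1-MKO from Lyz2-Cre. The fit was tested on simulated data with known changes. The 10 genes and all lists were chosen with earlier results of these data known. The text names all 10, up to 4 called genes per list (smallest adjusted p first) and, for lists with no call, the 2 most abundant where named. Not every gene this rule names is reported here. Alternatives were DESeq2 1.42.0 (size factors, Wald test), limma 3.58.1 (voom, quality weights), fits without the filter or with a minimum mean of 1 CPM, a replicate block, the 2 compared groups by themselves, leaving out libraries in turn and, chosen after seeing the data, a 1.25-fold limit.

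The labels give no pairing. Deviations from group means of same-numbered libraries had r of 0.24 to 0.53 in all 4 pairs of MDKO with Lyz2-Cre livers. In each other comparison at least 1 pair was under 0.1. The fits reported did not pair samples. The replicate block, over all groups of a count table, was used only as an alternative. Depth limits precision through counting error, which is largest for H2-M2 in livers.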

Additional observations from a re-analysis of the deposited data

Results flagged for a closer look

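Among 40 combinations of gene and liver group, 4 held a liver whose gap to the nearest other, relative to the range of its group of 4, was over Dixon's critical value. Chance passes it in about 1 of 20 groups. H2-D1 was at 732 CPM in Lyz2-Cre replicate 2 (the other 3 at 629 to 638) and at 525.7 CPM in ASK1-MKO replicate 3 (the others at 637 to 639). In MDKO replicate 1 B2m was at 1518 CPM (1247 to 1290 in the others) and Tapbp at 75.0 CPM (54.6 to 55.3).

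Nlrc5 differed by label, with an interaction of −1.31 on the log2 scale (edgeR adjusted p = 0.00105): it was higher in NFATc3-MKO than in Lyz2-Cre livers, and lower in MDKO than in ASK1-MKO livers. The targeted genes do not bear out the ASK1-MKO and MDKO labels (Map3k5 46.3 and 30.6 CPM, 30.9 in Lyz2-Cre livers). The MDKO and Lyz2-Cre livers lay close together relative to the spread pooled over the 4 groups, which was described and not tested.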

How the results depend on the processing

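In ASK1-MKI cultures 9 genes were called in every alternative and with each culture left out, except 7 with the added 1.25-fold limit, and in MDKO against Lyz2-Cre livers 0 were called throughout; the other counts of called genes, all of 1 or 2, moved. With voom they were 4 (NFATc3-MKO against Lyz2-Cre), 2 (ASK1-MKO against Lyz2-Cre), 4 (NFATc3-MKO against ASK1-MKO), 4 (MDKO against NFATc3-MKO), 4 (interaction) and 3 (NFATc3-MKI), and with the DESeq2 Wald test 3 and 2 in the NFATc3-MKO and ASK1-MKO livers against Lyz2-Cre, and 2 in MDKO against NFATc3-MKO. Without a filter they were 1 (NFATc3-MKO against ASK1-MKO) and 0 (MDKO against either single knockout, and NFATc3-MKI), and with the 1.25-fold limit 0 in NFATc3-MKI; more genes are adjusted over without a filter. Fitting only the 2 groups gave 2, 1 and 0 in ASK1-MKO against Lyz2-Cre, NFATc3-MKO against ASK1-MKO and MDKO against NFATc3-MKO. Leaving out each library gave 0 to 5 (NFATc3-MKO against Lyz2-Cre), 1 to 4 (NFATc3-MKO against ASK1-MKO), 0 to 3 (MDKO against NFATc3-MKO), 0 to 1 (MDKO against ASK1-MKO), 1 to 5 (interaction) and 0 to 4 (NFATc3-MKI). The cause of these moves was not tested.

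With the replicate block the counts were 2 in ASK1-MKO against Lyz2-Cre, 1 in NFATc3-MKO against ASK1-MKO and 2 in MDKO against ASK1-MKO, and the block changed no other count: 1, 0, 1, 1, 1 and 9. No called gene changed sign. Over all genes, called counts ran from 218 to 2628 over the alternatives in NFATc3-MKO (1124 in the fit reported), 587 to 2649 in ASK1-MKO (1126), 671 to 3102 in NFATc3-MKO against ASK1-MKO (1697), 283 to 2653 and 547 to 2571 in MDKO against NFATc3-MKO and ASK1-MKO (978 and 1028), 1512 to 3753 in the interaction (2153) and 2342 to 5631 in ASK1-MKI (5586).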
